A study of Mus musculus with 48 samples.

Results

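Fgf21, Gdf15, Klb and Fgfr1 were examined as 4 of the 47729 genes in an expression table of mouse adipose tissue, each taken by its gene symbol. Fgf21 and Gdf15 encode secreted stress hormones, and Klb and Fgfr1 encode the coreceptor and the main receptor through which fat responds to the first of them. The study took 3 fat depots from male mice: brown fat (BAT), subcutaneous fat (SFAT) and a visceral depot (EFAT). The mice were Cth+/+ or Cth-/- and had eaten a control diet (CTRL) or a diet without cystine (CysF) for 6 days, which gives 12 groups of 4 libraries and 48 libraries in all. Cth encodes cystathionine gamma-lyase, the last enzyme of the pathway that makes cysteine from methionine, so that Cth-/- mice depend on cysteine from food. The strain, the age, the make of the Cth allele and whether a library is 1 animal or a pool were not given in the sources used here. The p-values therefore measure only the spread between these samples, part of which may be technical.

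FGF21 is a hormone of the fibroblast growth factor family that circulates because it binds heparan sulfate weakly. It signals where a cell carries both beta-Klotho, the product of Klb, and an FGF receptor, chiefly FGFR1 in adipocytes, and the signal runs through FRS2 and the ERK kinases to genes such as the Sprouty and DUSP feedback inhibitors. Liver is the main source of the circulating hormone, and brown fat makes it under cold or mitochondrial stress. GDF15 is a distant member of the TGF-beta family, rises in many stressed tissues, and acts on the brain stem receptor GFRAL with its partner RET to reduce food intake. Both hormone genes are known targets of ATF4, the transcription factor of the integrated stress response, in which amino acid shortage or endoplasmic reticulum stress leads to phosphorylation of the initiation factor eIF2alpha.

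Depth was 22067552 to 46031102 reads assigned to genes per library in BAT, 16245822 to 39001433 in SFAT and 18711864 to 36110236 in EFAT. Cth had 8 to 44 reads in the Cth+/+ libraries of BAT and 0 to 1 in the Cth-/- libraries, and in SFAT (90 to 332 against 0 to 4) and EFAT (202 to 389 against 0 to 6) the genotypes were separated in the same way. Ucp1, the defining gene of brown adipocytes, stood at 3180 ± 735 CPM (reads of the gene scaled to a common library size; SD, n = 4) in BAT of Cth+/+ mice on the control diet, against 21.3 ± 23.9 in SFAT and 0.0735 ± 0.0854 in EFAT, which fits the labelled depots. The libraries of every depot fell into sets of 9 and 7 by whether the unnamed gene Gm43512 was below or above 0.1 CPM, and the labels give no batch for this. The share of reads on mitochondrial genes ran from 21.8% to 45.7% in BAT, and 2 BAT, 1 SFAT and 4 EFAT libraries exceeded 1.5 times their depot's median.

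Fgf21 (ENSMUSG00000030827) lies at chr7:45613886-45615490 on the minus strand of GRCm38 with 951 exonic bases, and Gdf15 (ENSMUSG00000038508) at chr8:70629393-70632456 on the minus strand with 1852. Klb (ENSMUSG00000029195) lies at chr5:65348314-65384007 on the plus strand with 4549 exonic bases. Fgfr1 (ENSMUSG00000031565) lies at chr8:25513654-25575718 on the plus strand with 9875, where it overlaps the antisense gene Gm16159. Gm16159 had 5 reads in all 48 libraries against 207379 for Fgfr1.

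Both hormone genes were lower in BAT of Cth-/- mice, and their promoters are shown because ATF4 is known to act on both genes. The sequences are the 250 bases before the start in RefSeq GRCm38.p6, written 5′ to 3′ on the gene's strand, at chr7:45615491-45615740 for Fgf21 and chr8:70632457-70632706 for Gdf15. Capitals mark the only match to the core of the C/EBP-ATF response element, TGATGNAA, searched on both strands.

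Fgf21: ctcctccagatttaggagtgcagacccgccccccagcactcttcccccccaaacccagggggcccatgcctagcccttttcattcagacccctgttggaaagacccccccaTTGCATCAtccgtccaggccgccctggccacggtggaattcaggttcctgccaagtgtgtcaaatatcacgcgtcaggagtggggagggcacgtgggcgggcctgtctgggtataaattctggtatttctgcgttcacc

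Gdf15: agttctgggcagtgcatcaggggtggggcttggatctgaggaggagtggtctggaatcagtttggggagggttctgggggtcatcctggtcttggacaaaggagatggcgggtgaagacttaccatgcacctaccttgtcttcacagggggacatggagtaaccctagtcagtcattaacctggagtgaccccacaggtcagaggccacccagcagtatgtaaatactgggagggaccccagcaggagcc

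The match in Fgf21 is on the opposite strand, 139 to 132 bases before the start, and the same window holds an E-box, CACGTG, 50 to 45 bases before it. The element's core occurred in 3.45% and the E-box in 6.02% of 32851 RefSeq windows of the same length. Neither the core, the E-box, the cAMP response element TGACGTCA, the antioxidant response element core TGACNNNGC nor the PPAR response element was found in the Gdf15 window printed here. RefSeq lists a second Gdf15 start, and its window at chr8:70632096-70632345 holds an E-box 83 to 78 bases before that start. This window lies inside the Gdf15 span given above. The Klb window, chr5:65348161-65348410, holds 1 match to TGACNNNGC, 67 to 59 bases before its RefSeq start, a motif found in 10.2% of windows. That start lies downstream of the Klb start given above, so the match falls inside the gene span given there. A match describes the letters and is not a measured binding site.

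**Figure D1:**
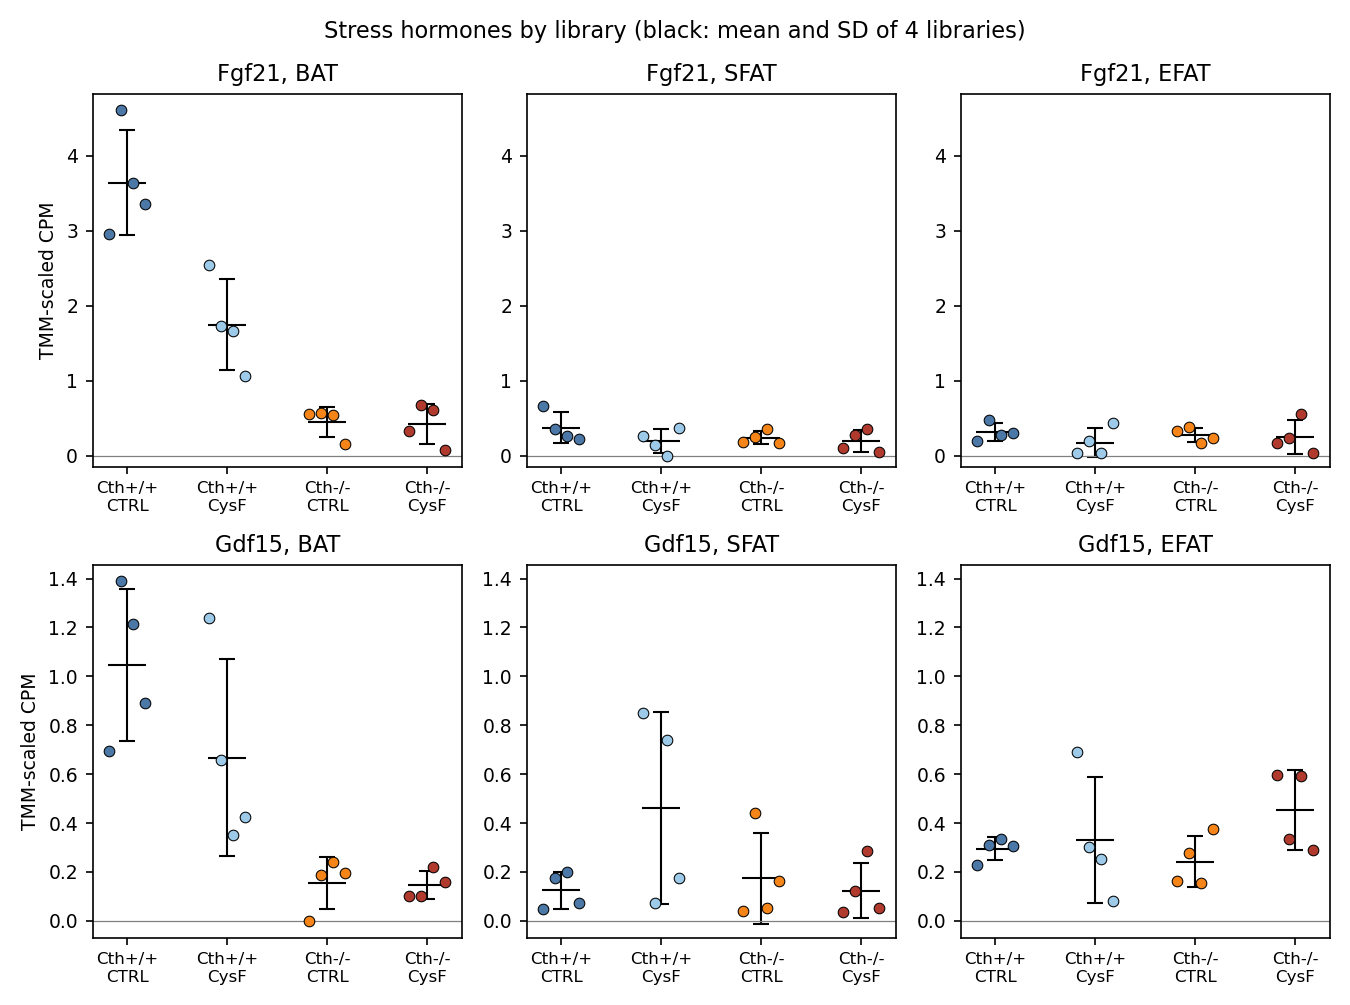
Fgf21 and Gdf15 in CPM for each of the 48 libraries by depot, genotype and diet, with the group mean and SD. The Cth+/+ libraries of BAT lie above the Cth-/- libraries of BAT on each diet for both genes, and every white fat library lies under 1 CPM.

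The depots were compared first, in Cth+/+ mice on the control diet, to place the members before any challenge. Fgf21 was higher in BAT, at 3.64 ± 0.70 CPM (SD, n = 4), than in SFAT at 0.376 or EFAT at 0.316 CPM on average. The difference was 3.31 ± 0.63 on the log2 scale (SE) against SFAT, with an adjusted p of 2.69e-05, and 3.55 ± 0.64 against EFAT, with an adjusted p of 8.89e-06 (edgeR quasi-likelihood test, Benjamini-Hochberg adjustment over 18348 genes). Gdf15 was also higher in BAT, at 1.05 ± 0.31 CPM, with log2 differences of 2.99 ± 0.69 (adjusted p 0.00035) against SFAT and 1.84 ± 0.64 (adjusted p 0.0122) against EFAT. The receptor genes went the other way. Klb was lower in BAT by 0.59 ± 0.21 on the log2 scale against SFAT (adjusted p 0.0169) and by 0.55 ± 0.21 against EFAT (adjusted p 0.0233), and Fgfr1 was lower by 1.51 ± 0.13 (adjusted p 3.83e-13) and 1.29 ± 0.12 (adjusted p 1.65e-11). All 4 members passed in both comparisons, where 53.0% of all genes tested passed against SFAT and 60.0% against EFAT. Their groups did not overlap either. The share of all genes whose groups do not overlap was not counted, here or in any comparison below, so separation of groups is given as description only. Between SFAT and EFAT no member passed, where 15.2% of genes did, and the groups overlapped except for Gdf15. Without replicate 2 the adjusted p rose to 0.123 and 0.152 for Klb against SFAT and EFAT and to 0.0531 for Gdf15 against EFAT. Klb against EFAT was also lost without replicate 3, at 0.0798, and Gdf15 against EFAT without the libraries of high mitochondrial share, at 0.0788.

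Levels of different genes were set side by side per kilobase of exon, with all annotated exons of a gene merged, and by this measure the mean of Klb led in every depot of these mice. The order depends on that length. In CPM, Fgfr1 was above Klb, at 59.8 against 56.0 in BAT, 173.1 against 85.8 in SFAT and 149.8 against 84.0 in EFAT. Per kb, SFAT replicate 3 also had more Fgfr1 than Klb, at 20.0 against 14.5. Its level was 12.3 CPM per kb for BAT, 18.9 for SFAT and 18.5 for EFAT, and that of Fgfr1 was 6.06, 17.5 and 15.2. Fgf21 stood at 3.83 CPM per kb in BAT, below Fgfr1 there, and Gdf15 at 0.565.

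Loss of Cth went with much lower mRNA for both hormones in brown fat. On the control diet, Fgf21 stood at 2.95, 4.60, 3.64 and 3.36 CPM in the 4 Cth+/+ libraries, which rest on 51 to 68 reads each. The Cth-/- libraries gave 0.561, 0.564, 0.540 and 0.156 CPM from 4 to 12 reads. Every Cth-/- library was below every Cth+/+ library, and the means were 0.455 ± 0.20 and 3.64 ± 0.70 CPM. The fitted difference was -3.01 ± 0.43 on the log2 scale, or 8.04-fold lower, with an adjusted p of 0.00532 (edgeR quasi-likelihood test over 14528 genes). Of all genes tested, 2.10% passed in this comparison, and of the 117 that fell, or 0.805%, only Cth itself fell by more. Fgf21 met the expression filter (minimum count 10) mainly through Cth+/+ libraries, at 19 to 68 reads in BAT against 1 to 13 in Cth-/- libraries, which favours a place among the falls. Without the filter the difference was -3.01 ± 0.43 (adjusted p 0.00177 by edgeR).

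The genotypes did not overlap on the cystine-free diet either. There Fgf21 was 2.54, 1.73, 1.67 and 1.06 CPM in the Cth+/+ libraries (19 to 41 reads) and 0.332, 0.669, 0.609 and 0.0786 CPM in the Cth-/- libraries (1 to 13 reads). The difference was -1.99 ± 0.44 with an adjusted p of 0.00274, where 31.6% of genes passed and 17.1% fell. The diet itself changed Fgf21 in neither genotype by the test. In Cth+/+ mice all 4 libraries on the cystine-free diet lay below all 4 on the control diet, with a log2 difference of -1.03 ± 0.38, an unadjusted p of 0.0154 and an adjusted p of 0.363, where 0.0826% of genes passed. In Cth-/- mice the diet difference was -0.02 ± 0.51 (adjusted p 0.987), and the groups overlapped. The interaction of genotype and diet was 1.02 ± 0.62 with an adjusted p of 0.362, where 6.42% of genes passed.

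Gdf15 followed the same order in BAT at a lower level. Its 4 Cth+/+ libraries on the control diet read 0.695, 1.39, 1.21 and 0.890 CPM from 12 to 20 reads, and the Cth-/- libraries 0, 0.188, 0.240 and 0.195 CPM from 0 to 5 reads. A count of 0 in a library allows up to 3 reads. The groups did not overlap, and the difference was -2.58 ± 0.50 with an adjusted p of 0.0207, the fourth largest fall among the genes that passed. No Cth-/- library of BAT had over 5 reads, so Gdf15 met the expression filter (minimum count 10) only through Cth+/+ libraries. A gene admitted in this way can rank only among the falls, so its rank is no support. Without the filter the difference was -2.58 ± 0.54 (adjusted p 0.025 by edgeR). The Cth+/+ libraries on the cystine-free diet read 1.24, 0.656, 0.351 and 0.424 CPM and the Cth-/- libraries on it 0.0996, 0.103, 0.221 and 0.157 CPM, again without overlap, with a difference of -2.20 ± 0.54 and an adjusted p of 0.00527. The diet difference of Gdf15 was -0.60 ± 0.43 (adjusted p 0.716) in Cth+/+ mice and -0.23 ± 0.62 (adjusted p 0.828) in Cth-/- mice.

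These low counts limit the precision of both genes. Across the alternative settings, Fgf21 stayed past the threshold in 17 of 18 on each diet. Gdf15 did so in 11 of 17 on the control diet, with an adjusted p of 0.0504 to 0.0764 when replicate 1, 2, 3, 13 or 15 was left out, and in 16 of 17 on the cystine-free diet. Within the larger library set the 4 genotype differences passed. Within the smaller set, which holds only 1 or 2 BAT libraries per group, they kept their sign and did not pass: -2.70 (adjusted p 0.2) for Fgf21 and -2.82 (0.427) for Gdf15 among controls, and -3.91 (0.0672) and -1.22 (0.65) without cystine.

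Markers of other cell types were read in the same BAT libraries, because in whole tissue fewer cells of a type and less RNA per cell cannot be told apart. Skeletal muscle can also make both hormones under stress, and its 10 markers summed to 664 to 2349 CPM in the Cth+/+ control group and 130.5 to 1312 CPM in the Cth-/- control group. Without cystine they summed to 269.5 to 5185 CPM in Cth+/+ and 4.48 to 205.1 CPM in Cth-/- mice, where 10 of 10 were lower by the test. On the control diet 0 of 10 passed, with a median log2 difference of -1.03 against 0.0076 over all genes. With the muscle level as a term, added after the data were seen, the Fgf21 difference was -3.15 ± 0.44 (adjusted p 0.00784) among controls and -2.54 ± 0.65 (0.023) without cystine, and that of Gdf15 was -2.73 ± 0.52 (0.027) and -2.82 ± 0.77 (0.0316). Macrophage markers summed to 100 to 162.8 CPM in Cth+/+ and 87.5 to 170.4 CPM in Cth-/- controls. Without cystine the sums were 124.7 to 295.2 and 56.0 to 77.9 CPM, with 9 of 10 lower, and their part in the hormone result was not tested. Hepatocyte markers summed to 7.45 to 26.4 CPM in Cth+/+ and 1.68 to 11.5 CPM in Cth-/- controls, with 0 of 5 passing, and 1 of 5 was lower without cystine. Fibroblast and progenitor markers passed in 0 of 10 among controls and were lower in 8 of 10 without cystine, at 267.1 to 330.7 CPM in Cth-/- and 837.5 to 1746 CPM in Cth+/+ mice. Brown adipocyte markers passed in 0 of 8 among controls and were higher in 3 of 8 without cystine, at 8839 to 12950 CPM in Cth-/- and 5864 to 7073 CPM in Cth+/+ mice. The part of these 3 lists in the hormone results was not tested.

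In white fat the hormone genes were close to the limit of detection. Fgf21 lay between 0 and 0.665 CPM in the 32 SFAT and EFAT libraries, with 0 to 17 reads each. Its group means in SFAT were 0.376 and 0.197 CPM in Cth+/+ mice on the control and cystine-free diets and 0.238 and 0.199 CPM in Cth-/- mice. In EFAT they were 0.316, 0.173, 0.279 and 0.250 CPM in the same order. All groups overlapped within each depot, and 1 SFAT library had 0 reads. The genotype difference on the control diet was -0.66 ± 0.64 (adjusted p 0.682) in SFAT and -0.18 ± 0.70 (adjusted p 1) in EFAT, where 0.103% and 0.0464% of genes passed.

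Whether the genotype difference itself varied between depots was tested in a comparison added after the data were seen. For mice without dietary cystine, the genotype difference in BAT minus that in EFAT was -2.53 ± 0.92 for Fgf21 (adjusted p 0.0421), -2.73 ± 0.96 for Gdf15 (0.0364) and 0.94 ± 0.30 for Klb (0.0201), so 3 of 4 members passed where 22.8% of genes did. Of 15 alternatives, 8 kept Fgf21 past the threshold, 8 kept Gdf15 and 11 kept Klb. The call was lost without replicate 7, 8, 10, 16, 17 or 18 for Fgf21 (adjusted p up to 0.166), without replicate 8, 10, 11, 16, 17 or 18 for Gdf15 (up to 0.105) and without replicate 10 or 17 for Klb (up to 0.109). Against SFAT on that diet no member passed, with Fgf21 at -2.12 ± 0.93 (adjusted p 0.157) and 9.37% of genes passing. On the control diet the differences for Fgf21 were -2.38 ± 0.89 against SFAT (adjusted p 0.546) and -2.84 ± 0.89 against EFAT (0.306), and those for Gdf15 were -3.03 ± 1.00 (0.446) and -2.35 ± 0.95 (0.488). On that diet only 5 and 3 of 18348 genes passed in these comparisons, or 0.0273% and 0.0164%.

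Gdf15 in SFAT varied widely within groups. The Cth+/+ libraries on the cystine-free diet read 0.852, 0.0741, 0.739 and 0.173 CPM, against 0.0475, 0.177, 0.199 and 0.0730 CPM on the control diet, with a log2 difference of 1.74 ± 0.85 and an adjusted p of 0.378, where 0.0664% of genes passed. The Cth-/- libraries read 0.0413, 0.442, 0.0513 and 0.164 CPM on the control diet and 0.0353, 0.122, 0.284 and 0.0521 CPM on the cystine-free diet. Between genotypes without cystine the difference was -1.71 ± 0.84 (adjusted p 0.124), where 37.5% of genes passed. Its 3 highest libraries, replicates 7 and 10 of the Cth+/+ cystine-free group and replicate 13 of the Cth-/- control group, were also the 3 with the highest summed macrophage markers, at 2306, 2206 and 2408 CPM against 405.5 to 1444 CPM in the other 13. The same 3 led in summed fibroblast and progenitor markers, at 13720, 12430 and 10890 CPM. With the macrophage level as a term, added after the data were seen, the diet difference in Cth-/- mice turned from -0.34 ± 0.88 (adjusted p 0.818) to 2.19 ± 0.67 (adjusted p 0.0383). The difference without the term was smaller than its SE, so it had no clear direction. Macrophage sums ran from 715.9 to 2408 CPM in Cth-/- controls and from 405.5 to 757 CPM without cystine. With so little overlap the term and the diet can hardly be told apart, and no direction is drawn from either value.

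**Figure D2:**
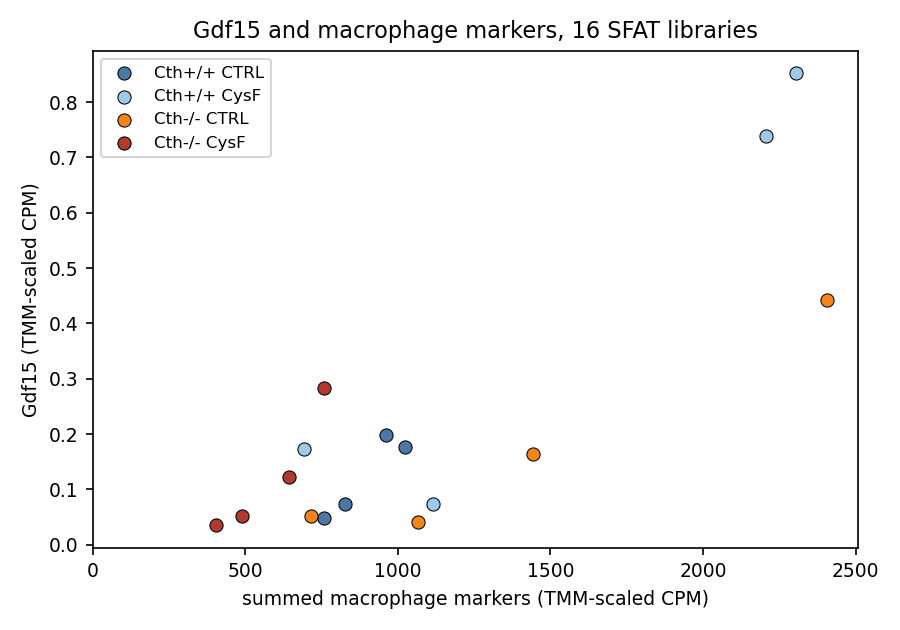
Gdf15 in CPM against the summed CPM of the macrophage markers in the 16 SFAT libraries, coloured by group. The 3 libraries with 2206 CPM or more of macrophage markers are the 3 with the highest Gdf15, and 2 of them are in the Cth+/+ cystine-free group.

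In EFAT, Gdf15 read 0.164, 0.277, 0.153 and 0.376 CPM in Cth-/- controls and 0.597, 0.335, 0.593 and 0.289 CPM on the cystine-free diet. The groups overlapped, and the difference of 1.00 ± 0.50 had an adjusted p of 0.146, where 28.8% of genes passed. The group means of Cth+/+ mice were 0.294 and 0.331 CPM.

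Klb, the coreceptor that gives FGF21 its tissue selectivity, was abundant in all 3 depots, at 35.0 to 81.2 CPM in BAT, 51.8 to 101.3 CPM in SFAT and 36.5 to 98.8 CPM in EFAT. In BAT, where the hormone gene was lower in Cth-/- mice, the Klb means were 56.0 ± 7.5 and 46.9 ± 8.4 CPM in Cth+/+ mice on the control and cystine-free diets and 60.1 ± 16.9 and 58.0 ± 6.7 CPM in Cth-/- mice. The genotype differences there were 0.12 ± 0.16 and 0.31 ± 0.16, and neither passed. Within EFAT the lowest group was the Cth-/- mice fed without cystine, with libraries at 57.4, 36.5, 54.3 and 40.7 CPM. The Cth+/+ libraries of EFAT on that diet stood at 65.2, 60.6, 88.7 and 88.7 CPM, above all of these. The difference was -0.59 ± 0.23 with an adjusted p of 0.0537, where 39.7% of genes passed, and 8 of 16 alternatives placed it past the threshold. The alternatives ran from -0.78 to -0.31. Every Cth+/+ library of EFAT on that diet was in the larger library set, and of the Cth-/- libraries only replicate 16 was. Replicates 17 and 20, the lowest in Klb, had 14.7% and 14.4% mitochondrial reads, against 4.95% to 9.48% in the Cth+/+ libraries. Genotype thus ran largely with library set here. In the same libraries the summed adipocyte markers ran from 15890 to 20740 CPM in Cth-/- mice and from 22980 to 32330 CPM in Cth+/+ mice, and their part in the Klb difference was not tested. In SFAT the group means of Klb lay between 66.1 and 85.8 CPM, and the genotype difference on the control diet was -0.40 ± 0.18 (adjusted p 0.442).

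Fgfr1, the receptor tyrosine kinase, showed small differences between the groups of a depot. Its BAT means were 59.8 ± 3.9 and 60.7 ± 3.5 CPM in Cth+/+ mice and 67.6 ± 9.6 and 66.4 ± 6.9 CPM in Cth-/- mice, in the order of control and cystine-free diet. In EFAT of Cth-/- mice it stood at 178.4, 185.1, 196.6 and 175.6 CPM on the control diet and at 156.8, 133, 150.3 and 115.3 CPM on the cystine-free diet. These groups did not overlap. The difference was -0.30 ± 0.12 with an adjusted p of 0.0785, where 28.8% of genes passed, and was past the threshold in 6 of 17 alternatives. Summed adipocyte markers ran from 23490 to 34740 CPM on the control diet and from 15890 to 20740 CPM without cystine. Fibroblast and progenitor markers ran from 2593 to 3039 and from 1810 to 2008 CPM, and endothelial markers overlapped, at 729.6 to 822.6 and 787.5 to 930.9 CPM. Their part in the Fgfr1 difference was not tested. The diets ran largely with library set: only replicate 15 of the controls was in the smaller set, and only replicate 16 without cystine was outside it. Replicates 17 and 20, the lowest in Fgfr1, had 14.7% and 14.4% mitochondrial reads, against 5.79% to 7.13% in the Cth-/- controls. The Cth-/- control libraries of EFAT were also above the Cth+/+ control libraries, which ran from 142.5 to 164.2 CPM. The difference was 0.28 ± 0.12 with an adjusted p of 0.772, where 0.0464% of genes passed. Here genotype ran largely with library set, as only replicate 3 of the Cth+/+ controls was in the larger set. Replicates 1 and 4 of the Cth+/+ controls had 10.5% and 11.5% mitochondrial reads. In SFAT of Cth-/- mice the means were 201.3 ± 14.7 CPM on the control and 162.1 ± 34.7 CPM on the cystine-free diet, with overlap, a difference of -0.29 ± 0.14 and an adjusted p of 0.141, where 25.4% of genes passed.

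**Figure D3:**
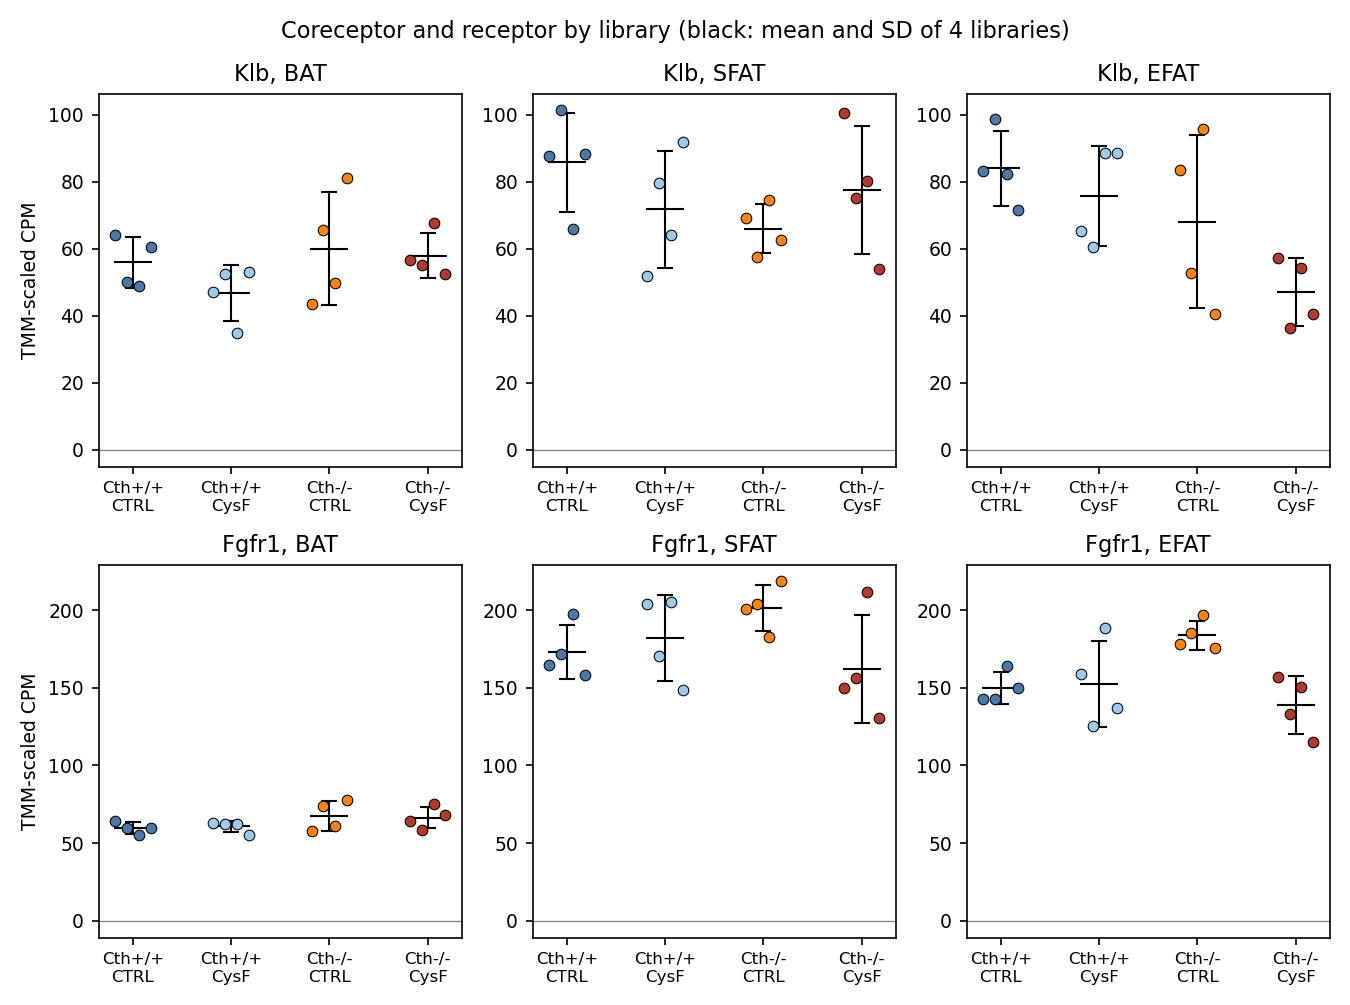
Klb and Fgfr1 in CPM for each of the 48 libraries by depot, genotype and diet, with the group mean and SD. Fgfr1 lies between 54.9 and 77.7 CPM in BAT and at 115.3 CPM or above in every white fat library.

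**Figure D4:**
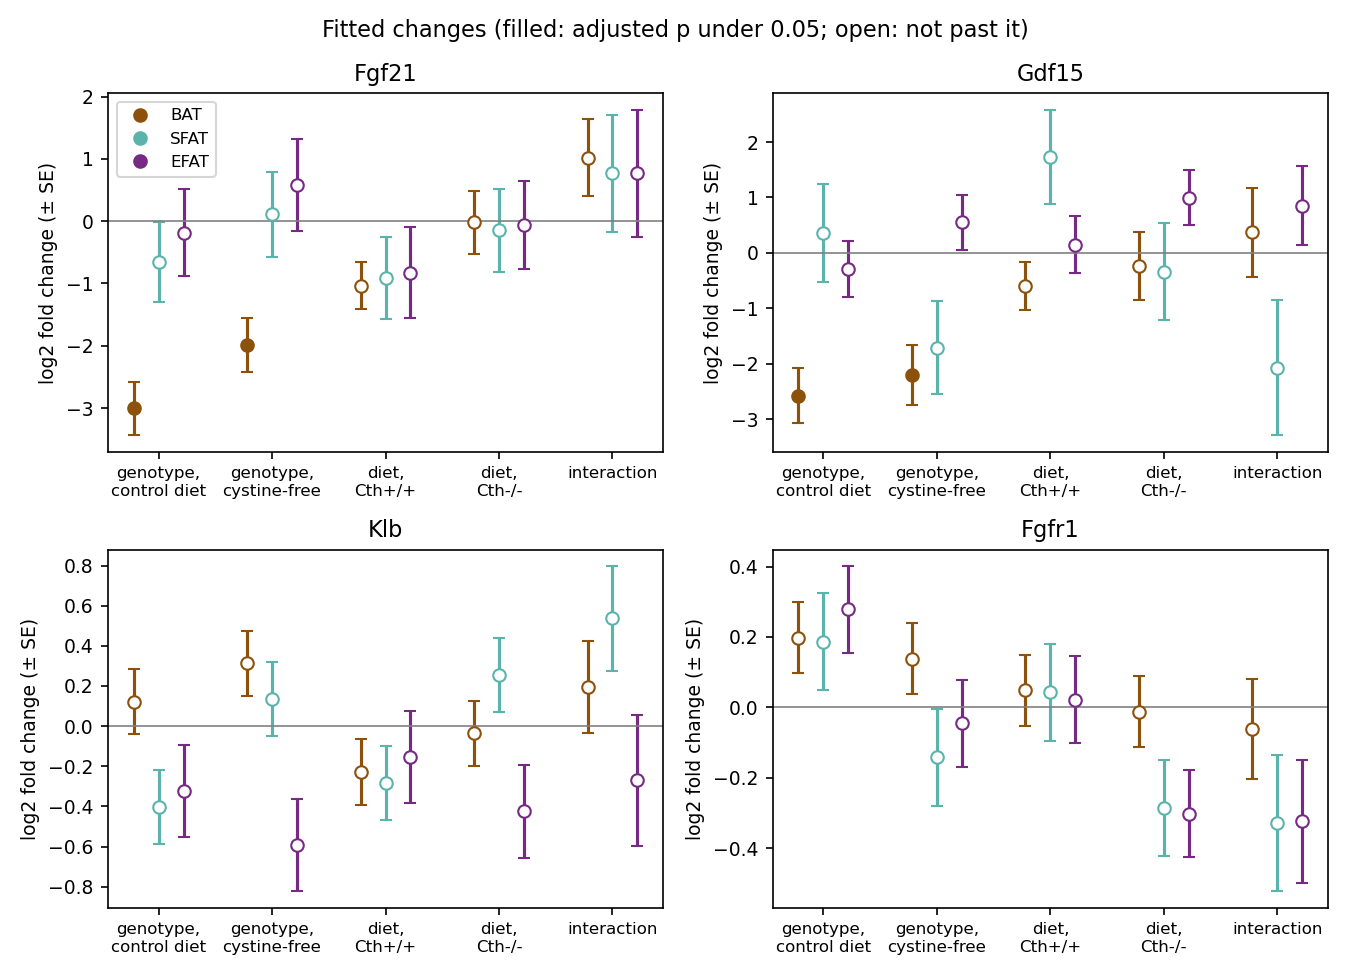
Fitted log2 differences of the 4 members with their standard errors for each comparison within a depot, with filled points for an adjusted p under 0.05. The 4 filled points are Fgf21 and Gdf15 in BAT, lower in Cth-/- than in Cth+/+ mice on each diet.

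Of the 60 tests of a member within a depot, 4 passed, and all 4 were the hormone genes between genotypes in BAT. Of all genes, 2.10% passed between genotypes in BAT on the control diet and 31.6% without cystine. Over the 15 comparisons within a depot this share ran from 0% to 39.7%, so the count of 4 is description only. Neither receptor gene passed within any depot, and no member passed for diet in either genotype. The diet difference in Cth-/- mice passed for no member, and for 18.0% of all genes tested from BAT, 25.4% from SFAT and 28.8% from EFAT. The interaction of genotype and diet passed for 21.7% of genes in SFAT and 10.4% in EFAT, again without a member. For diet in Cth+/+ mice of EFAT, 0 of 17248 genes passed with edgeR, 678 had an unadjusted p under 0.05, and 35 passed with DESeq2. The diet difference of Cth-/- mice was also compared between depots, and no member passed in 12 tests, where 2.16% of genes did for BAT against SFAT, 16.2% for BAT against EFAT and 4.38% for SFAT against EFAT.

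The other genes of the pathway were read from lists assembled for this purpose. Among the FGF ligands and binding proteins in BAT on the control diet, Fgf21 alone passed of 13 tested, where 2.10% of all genes did. Without cystine 9 of 13 were lower in Cth-/- mice, where 31.6% of all genes passed and 17.1% were lower. The list median was -1.13 against -0.01 over all genes. Beside Fgf21 these were led by the intracellular family members Fgf13, at -3.32 ± 0.57, and Fgf14, at -1.66 ± 0.37. The protease FAP cuts and inactivates the human hormone, and its action on the mouse hormone was not examined here. The gene Fap fell with the diet in Cth-/- mice in BAT (-0.89 ± 0.18), SFAT (-1.22 ± 0.15) and EFAT (-0.80 ± 0.25). Fgf10, a paracrine ligand made by adipose progenitors, fell by the test in the same 3 comparisons, by 0.93, 0.69 and 1.17 on the log2 scale. The summed fibroblast and progenitor markers of Cth-/- mice were 695.6 to 931.2 CPM on the control diet and 267.1 to 330.7 CPM without cystine in BAT. In SFAT they were 4225 to 10890 and 1263 to 1638 CPM, and in EFAT 2593 to 3039 and 1810 to 2008 CPM. Their part in these falls was not tested.

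Of the other receptors, few passed. With the diet in Cth-/- mice, Fgfr3 rose in BAT from 3.30 ± 0.50 to 6.58 ± 0.88 CPM (adjusted p 0.00805), Fgfr2 rose in SFAT by 0.74 ± 0.25 (0.0396), and the decoy receptor Fgfrl1 fell in EFAT by 0.59 ± 0.19 (0.0291). In each depot 1 receptor of 5, 5 and 7 tested passed, near or under the 18.0%, 25.4% and 28.8% of all genes that passed there. In the signal relay between receptor and ERK, 2 of 21 genes rose in BAT with the diet and none fell, 4 rose and 3 fell in SFAT, and 2 rose and 7 fell in EFAT, beside the same 18.0%, 25.4% and 28.8% over all genes. The phosphatase gene Ptpn11, which carries the receptor's signal to RAS, was higher in BAT (0.56 ± 0.13) and lower in EFAT (-0.61 ± 0.14), and the ERK-activated kinase gene Rps6ka3 fell in EFAT from 401.4 to 139.3 CPM.

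Feedback inhibitors and early targets of ERK signalling were read as a list of 18 tested genes in BAT. Spry4, which encodes a Sprouty inhibitor of receptor signalling, was the 1 that passed between genotypes on the control diet, at 39.0 ± 4.5 CPM in Cth+/+ and 18.0 ± 5.5 CPM in Cth-/- mice (-1.09 ± 0.24, adjusted p 0.0309). Of all genes 2.10% passed there. With the cystine-free diet Spry4 rose in Cth-/- mice to 43.2 ± 13.5 CPM (1.27 ± 0.24, adjusted p 0.00249). Dusp4, an ERK phosphatase, rose by 1.34 ± 0.21 and the cyclin gene Ccnd1 fell by 2.50 ± 0.36 in the same comparison. There 5 genes of the list rose and 2 fell, where 18.0% of all genes passed. In SFAT Dusp4 rose by 1.92 ± 0.32 and Ccnd1 fell by 2.58 ± 0.25, with 3 of 19 higher and 3 lower, and in EFAT 4 of 19 rose and 1 fell. These shares are near those over all genes, 25.4% and 28.8%.

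Genes that FGF21 is known to raise in fat were read as a list of 12. On the control diet in BAT none of 12 passed between genotypes. Among mice without dietary cystine 5 of 12 were higher in Cth-/- mice and none lower, where 31.6% of all genes passed. Ucp1 stood at 8225 ± 1586 against 3908 ± 668 CPM and Hsd11b1, the cortisone reductase, at 569.6 ± 104 against 206.5 ± 24.3 CPM. With the diet in Cth-/- mice, 4 of 12 rose and 1 fell in BAT, with a median of 0.58 against -0.01 over all genes, where 18.0% of all genes passed. In SFAT 8 of 12 rose with this diet and none fell, with a median of 1.14 against 0.03 over all genes, where 25.4% of all genes passed. They included Dio2, which activates thyroid hormone, by 4.03 ± 0.68, Ucp1 by 3.00 ± 1.01 and the fatty acid importer gene Cpt1b by 2.08 ± 0.43. Brown adipocyte markers rose in the same comparison, in 6 of 7 tested, from 128.5 to 292.5 CPM summed on the control diet to 287.2 to 1483 CPM without cystine, and their part in the rise of the list was not tested. Ucp1, Cidea and Ppargc1a are in both lists. In EFAT, where 28.8% of all genes passed, 2 of 11 rose, Ppargc1a by 1.58 ± 0.36 and Pnpla2, the first lipase of fat breakdown, by 0.86 ± 0.14. The level of the hormone in blood was not analysed here.

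The integrated stress response, the route by which amino acid shortage is known to raise both hormones, was read from a list of 22 genes. Between genotypes in BAT on the control diet none was higher and 2 were lower, with a median of -0.14 against 0.01 over all genes, of which 0.805% were lower. These 2 were Atf4 itself, at 208.4 ± 13.7 CPM in Cth+/+ and 83.8 ± 15.1 CPM in Cth-/- mice (-1.29 ± 0.18, adjusted p 0.00532), and its target Trib3, a pseudokinase gene, at 10.2 ± 2.8 and 3.78 ± 0.71 CPM (-1.40 ± 0.30, adjusted p 0.0271). Atf4 was the only one of 19 upstream regulators of Fgf21 that passed there, where 2.10% of all genes did. The genotype difference of Atf4 on the control diet was larger in BAT than in SFAT by -1.15 ± 0.21 (adjusted p 0.0222) and than in EFAT by -1.17 ± 0.21 (adjusted p 0.0156). In mice fed without cystine Atf4 was 180.6 ± 32.1 CPM in Cth+/+ and 115.6 ± 28.1 CPM in Cth-/- mice (-0.63 ± 0.18, adjusted p 0.0146). On that diet 1 of the 22 genes was higher and 5 were lower, where 31.6% of all genes passed and 17.1% were lower.

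With the diet in Cth-/- mice, part of the stress response list rose and part fell, and neither hormone gene passed. In BAT 4 of 22 rose, among them the glutathione-degrading enzyme gene Chac1 (1.29 ± 0.33), Trib3 (1.13 ± 0.30) and Sesn2 (1.05 ± 0.27), and 3 fell, led by the proline synthesis gene Pycr1 (-2.52 ± 0.66). The interaction of genotype and diet passed for Trib3, at 1.87 ± 0.42 (adjusted p 0.0164). In SFAT 5 rose and 5 fell, with Chac1 at 1.00 ± 0.27 and Pycr1 at -3.16 ± 0.32. In EFAT 7 rose and 8 fell, with Chac1 at 1.40 ± 0.30 and the eIF2alpha phosphatase subunit gene Ppp1r15a at 1.02 ± 0.17. In these 3 comparisons Fgf21 differed by -0.02 ± 0.51, -0.15 ± 0.67 and -0.06 ± 0.71.

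**Figure D5:**
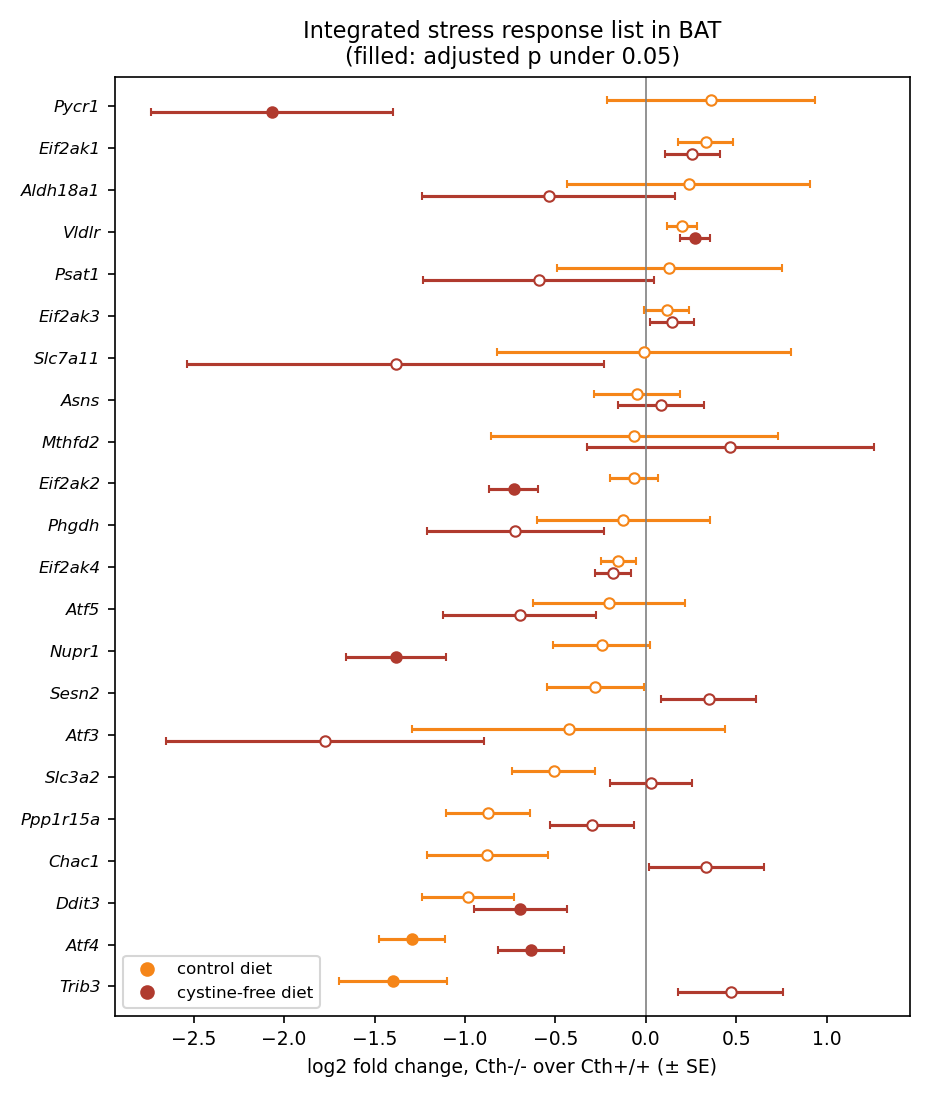
Fitted log2 differences between Cth-/- and Cth+/+ mice in BAT for the 22 genes of the integrated stress response list, on the control and the cystine-free diet, with standard errors and filled points for an adjusted p under 0.05. Atf4 and Trib3, at -1.29 and -1.40, are the 2 filled points of the control diet.

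On the side of GDF15, the list of its receptor, processing enzymes and regulators had 15 genes tested in BAT. Atf4 was the 1 that passed on the control diet, where 2.10% of all genes did. Without cystine 4 were higher and 5 lower in Cth-/- mice, where 31.6% of all genes passed and the fibroblast, macrophage and muscle markers given above were lower: the coreceptor gene Ret was lower (-1.70 ± 0.24), and Pcsk5 and Pcsk6, which encode proprotein convertases, were higher (1.02 ± 0.18 and 0.99 ± 0.15).

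The genes most like Klb and Fgfr1 across the 48 libraries were found by the correlation of log2 CPM centred within each depot, among 13284 genes. For Klb these were Hsd17b4 (r = 0.855), Adk (0.841), Rnf10 (0.838), Hagh (0.819) and Atp6v1h (0.818). For Fgfr1 they were Slit3 (0.769), Plin4 (0.752), Wdr81 (0.748), Sgsm2 (0.746) and Pacs2 (0.743). These are descriptions over libraries that share groups and depth. Fgf21 and Gdf15 were below 1 CPM on average over the 48 libraries and were not searched in this way.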

How the data were processed

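RNA was measured by poly(A) sequencing of 48 libraries. Reads had been aligned to mm10 and quantified by gene with RSEM, with STAR, FastQC and Picard also named, per the submitters' processing notes; versions, annotation and strand setting were not given in the sources used here. The deposited values are expected counts, which the authors had not normalized, and 5.31% to 8.16% of them per library were not whole. They were rounded to whole counts, and 14624 of the 47729 genes had 0 reads throughout. Levels are CPM with edgeR's TMM scaling over all libraries, per kb of GRCm38 exon where genes are compared.

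Within each depot, genes passing edgeR's expression filter (minimum count 10, minimum total 15) were fitted over 16 libraries and tested by the quasi-likelihood F-test with Benjamini-Hochberg adjustment and a threshold of 0.05 (R 4.3.3, edgeR 4.0.16, limma 3.58.1). Depots were compared in a fit over 48 libraries. DESeq2 1.42.0 and other alternatives were run on the same counts. The scripts were tested on simulated data. The 4 members and all gene lists were chosen with earlier results of these data known, so no list is independent evidence. Besides the members and Cth, genes of a list were named by size: up to 4 passing genes of at least 1 CPM for the diet in Cth-/- mice, with up to 2 examples that did not pass, and up to 3 in other comparisons. Gm43512 and Gm16159 were named after their values were seen. Replicate numbers run on across the groups of a depot and recur between depots. Over 48 pairs of libraries with the same number in 2 depots, deviations from the group means correlated between -0.112 and 0.486. Of these pairs 26 exceeded 0.1, and in 26 the library of the same number was the best match. The labels do not say whether a number marks an animal, so the main fit did not pair libraries. If numbers mark animals, the main comparisons between depots ignore that pairing. The replicate number as a block was run as an alternative. No 2 libraries of a group had like counts.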

Additional observations from a re-analysis of the deposited data

Results flagged for a closer look

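In BAT of Cth-/- mice on the control diet, replicate 15 read 0.1561 CPM of Fgf21 and stood apart from the other 3 libraries, at 0.5399, 0.5613 and 0.5643 CPM. In BAT of Cth+/+ mice fed without cystine, replicate 11 read 55.48 CPM of Fgfr1 against 62, 62.21 and 63.16 CPM. These were 2 of 48 groups examined for a single distant library, and chance alone marks about 1 in 20. Without replicate 15 the Fgf21 genotype difference of that diet was -2.66 with an adjusted p of 0.02 by edgeR.

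The genotype difference of mice fed without cystine varied between depots for 3 members. The difference in BAT minus that in EFAT was -2.5267 for Fgf21, -2.7282 for Gdf15 and 0.9422 for Klb on the log2 scale. The hormone genes were lower in Cth-/- mice in BAT, at -1.99 and -2.20, with 0.59 and 0.55 in EFAT, and Klb had differences of 0.31 ± 0.16 in BAT and -0.59 ± 0.23 in EFAT. This comparison was chosen after the data were seen.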

How the results depend on the processing

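The 4 members gave 100 results, of which 15 passed the threshold, and 1654 values under alternatives. Of these, 1482 kept their direction and side of the threshold, 32 lost significance, 21 gained it and 1 reversed. A further 118, in 45 results, changed sign with neither value past the threshold, and 30 had no adjusted p. The cause was not tested for any change below. Values are log2 differences.

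Within the smaller library set, chosen like the larger set, the mitochondrial cut and the marker terms after the data were seen, BAT genotype differences lost significance on the control diet (Fgf21 -2.70, Gdf15 -2.82) and the cystine-free diet (-3.91, -1.22). In that set lone libraries were assumed to vary like the other groups. SFAT differences on the cystine-free diet gained significance there for Gdf15 (-3.78) and Fgfr1 (-0.59), and Klb gained it within the larger set for diet in Cth-/- mice (0.51) and genotype on the control diet (-0.65). The macrophage term turned Gdf15 in SFAT of Cth-/- mice to 2.19. In EFAT, Fgfr1 for diet in Cth-/- mice gained significance with RLE scaling (-0.34), no low-count filter (-0.41), DESeq2 (-0.35) and only the groups compared (-0.34), and Klb between genotypes on the cystine-free diet under the same settings (-0.64, -0.71, -0.65, -0.67). For the genotype difference in BAT minus EFAT on that diet, Fgf21 (-2.47) and Gdf15 (-2.69) were lost without the filter, and Klb with the library set as a term (0.67) and without libraries of high mitochondrial share (0.60), where the Gdf15 level in BAT against EFAT was also lost (1.72).

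With 1 replicate left out, values ranged from -2.78 to -2.30 for Gdf15 by genotype in BAT on the control diet, -0.43 to -0.21 for Fgfr1 by diet in SFAT of Cth-/- mice, and in EFAT -0.78 to -0.50 for Klb by genotype on the cystine-free diet, -0.61 to -0.24 for Klb and -0.42 to -0.23 for Fgfr1 by diet in Cth-/- mice. Levels ranged from -0.66 to -0.46 for Klb in BAT against SFAT, and from -0.68 to -0.42 for Klb and 1.70 to 1.91 for Gdf15 against EFAT. The genotype difference in BAT minus EFAT on the cystine-free diet ranged from -3.65 to -1.98 for Fgf21, -2.93 to -2.39 for Gdf15 and 0.74 to 1.10 for Klb, and the diet difference for Klb from 0.16 to 0.80.

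Counts of genes past the threshold moved more. In BAT they went from 305 to between 1 and 1095 for genotype on the control diet, from 4589 to between 458 and 5083 on the cystine-free diet, from 2617 to between 333 and 3140 for diet in Cth-/- mice, from 12 to between 0 and 163 for diet in Cth+/+ mice, and from 932 to between 2 and 1471 for the interaction. The lowest of these was within the smaller library set except for diet in Cth+/+ mice. In SFAT they went from 11 to between 0 and 1053 for diet in Cth+/+ mice, from 17 to between 2 and 1411 for genotype among controls, from 4208 to between 2529 and 4997 for diet in Cth-/- mice, and from 3600 to between 1169 and 4293 for the interaction. In EFAT they went from 4976 to between 65 and 5904 for diet in Cth-/- mice, from 8 to between 0 and 41 and from 6841 to between 85 and 7503 for genotype on the control and cystine-free diets, from 0 to between 0 and 35 for diet in Cth+/+ mice, and from 1792 to between 3 and 3414 for the interaction. RLE scaling shifted the median of all genes by under 0.1 in each comparison. The replicate block changed no call of a member: Fgf21 in BAT against SFAT was 3.34 with it. It moved the count for the diet difference in BAT minus SFAT from 397 to 892, while without replicate 12 that count was 106. The count for the diet difference ranged from 980 to 4231 around 2976 in BAT minus EFAT and from 58 to 2234 around 804 in SFAT minus EFAT, and that for the genotype difference without cystine in BAT minus EFAT from 2011 to 5358 around 4188. The count for the level in SFAT against EFAT ranged from 1304 to 3569 around 2793, and those for the genotype difference on the control diet from 0 to 40 around 5 in BAT minus SFAT and from 1 to 63 around 3 in BAT minus EFAT. Fgf21 and Gdf15 had at most 26 reads per library outside BAT of Cth+/+ mice, which limits their precision.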

Other observations

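A list of other ligands of the TGF-beta superfamily, to which GDF15 belongs, was read for the cystine-free diet in Cth-/- mice. Of the genes tested, 2 rose and 5 fell of 15 in BAT, 1 rose and 8 fell of 21 in SFAT, and 1 rose and 7 fell of 19 in EFAT, with medians of -0.46, -0.66 and -0.38 against -0.01, 0.03 and 0.07 over all genes. Of all genes 18.0%, 25.4% and 28.8% passed in these comparisons. Fibroblast and progenitor markers fell in 8, 9 and 6 of 10, with 1 higher in EFAT, and macrophage markers in 7, 6 and 6 of 10, and their part in the falls of the list was not tested. Inhbb, an activin subunit gene, fell by 2.05 ± 0.28, 2.08 ± 0.23 and 0.84 ± 0.18 in the 3 depots, and Bmp1, which is counted in the list although it encodes a procollagen protease and no ligand, fell by 1.04 ± 0.15, 1.97 ± 0.25 and 0.88 ± 0.13. Bmp8b, a brown fat signal, rose in BAT by 2.23 ± 0.42, from 3.63 ± 1.11 to 16.9 ± 11.1 CPM.

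In the 16 BAT libraries, a search added after the data were seen gave the genes most like each hormone gene among 12308. For Fgf21 these were Dusp14 (r = 0.945), BB218582 (0.924), Prpf19 (0.917), Rab11fip4 (0.911) and BC034090 (0.91). For Gdf15 they were Tmc7 (0.878), Sytl4 (0.878), Zufsp (0.871), Mafg (0.865) and Icosl (0.86). These are descriptions over libraries that share groups and depth.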
